A study of Mus musculus with 74 samples.

Results

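H3K9me3 in cumulus cells (CC), the somatic nuclear donors, was compared with H3K9me3 in the inner cell mass (ICM) of blastocysts made from such nuclei by somatic cell nuclear transfer (SCNT). All autosomal peaks of the CC list and of the SCNT ICM list were taken, 141728 and 134555 peaks respectively, and compared over 2395928 windows of 1 kb, over 20807 protein-coding genes and over the promoters of those genes. The lists stand for 4 CC and 2 ICM precipitates, 6 of the 74 libraries of the series, and each group also had its own input libraries. The other lists came from SCNT embryos 6 and 14 h post activation (hpa), from those of 2, 4 and 8 cells (2C, 4C, 8C) and from morulae, from SCNT trophectoderm (TE), and from late fertilized zygotes (pronuclear stage 5, PN5). CC and the enucleated oocytes that received them came from adult superovulated B6D2F1 females, the hybrid of C57BL/6 and DBA/2, so CC and ICM carried nuclear genomes of one cross and differed in having passed through transfer, strontium activation and culture. The labels give C57BL/6 parents for fertilized embryos. ICM was parted from TE by micromanipulation, and the ultra-low-input native protocol starts from few cells.

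Replicates had been merged and drawn to equal read numbers before peak calling, so there was 1 list per group. No value below has a replicate error, no test between CC and ICM was possible, and a difference is described by its size, by its spread over the 19 autosomes, which are not replicates, or by a 95% Wilson interval that covers counting error only. Read depth at a single gene or window is not in these lists. Neighbouring windows lie in the same peaks, while the intervals treat windows as independent, so they are too narrow.

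Trimethylation of lysine 9 of histone H3 is deposited by the SUV39H and SETDB1 enzymes and read by HP1 proteins. In differentiated cells it covers silent gene clusters and repeats over long stretches, while in early embryos SETDB1, guided by zinc finger proteins and TRIM28, holds it on retrotransposons and on the germline-methylated alleles of imprinted genes. In donor nuclei it is known as a barrier to reprogramming after transfer.

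Sequences are shown for 6 promoters that stand for the 3 outcomes, lost, gained and kept, from 250 bases before to 50 after the RefSeq start in GRCm38.p6, 5′ to 3′ on the strand of the gene, with CpG dinucleotides, the sites of DNA methylation, in capitals. The windows of Caln1 and Ccdc60 lay wholly inside CC peaks and outside ICM peaks, those of Tex101 and Mcts2 the reverse, and those of Peg3 and Scgb1b30 wholly inside peaks of both. They are at chr5:130369208-130369507 (plus strand), chr5:116288936-116289235 (minus), chr7:24672001-24672300 (minus, a start inside the gene as GENCODE annotates it), chr2:152686898-152687197 (plus), chr7:6730370-6730669 (minus) and chr7:34095181-34095480 (plus).
Caln1: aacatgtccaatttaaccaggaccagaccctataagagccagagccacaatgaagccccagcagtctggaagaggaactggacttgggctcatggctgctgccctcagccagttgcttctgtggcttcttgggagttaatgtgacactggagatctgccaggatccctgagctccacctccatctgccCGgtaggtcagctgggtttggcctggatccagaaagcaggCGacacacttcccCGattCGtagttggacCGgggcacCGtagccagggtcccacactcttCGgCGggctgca
Ccdc60: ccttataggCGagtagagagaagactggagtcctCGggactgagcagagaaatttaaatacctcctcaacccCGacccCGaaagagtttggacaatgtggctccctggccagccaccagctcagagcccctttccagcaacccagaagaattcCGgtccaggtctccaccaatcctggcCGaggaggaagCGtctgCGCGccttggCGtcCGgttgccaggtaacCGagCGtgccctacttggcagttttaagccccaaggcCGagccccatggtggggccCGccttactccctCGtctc
Tex101: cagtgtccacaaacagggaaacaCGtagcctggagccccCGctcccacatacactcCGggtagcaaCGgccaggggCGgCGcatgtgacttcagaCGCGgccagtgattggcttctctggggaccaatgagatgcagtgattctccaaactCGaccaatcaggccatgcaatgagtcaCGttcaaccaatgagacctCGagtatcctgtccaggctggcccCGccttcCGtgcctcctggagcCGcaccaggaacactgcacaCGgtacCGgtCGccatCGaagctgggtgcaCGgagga
Mcts2: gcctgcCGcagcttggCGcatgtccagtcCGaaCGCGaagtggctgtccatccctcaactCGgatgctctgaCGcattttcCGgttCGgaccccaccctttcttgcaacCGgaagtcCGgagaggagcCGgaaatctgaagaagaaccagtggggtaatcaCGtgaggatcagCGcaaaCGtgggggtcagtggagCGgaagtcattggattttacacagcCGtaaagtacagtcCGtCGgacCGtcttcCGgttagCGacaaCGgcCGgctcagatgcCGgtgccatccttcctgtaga
Peg3: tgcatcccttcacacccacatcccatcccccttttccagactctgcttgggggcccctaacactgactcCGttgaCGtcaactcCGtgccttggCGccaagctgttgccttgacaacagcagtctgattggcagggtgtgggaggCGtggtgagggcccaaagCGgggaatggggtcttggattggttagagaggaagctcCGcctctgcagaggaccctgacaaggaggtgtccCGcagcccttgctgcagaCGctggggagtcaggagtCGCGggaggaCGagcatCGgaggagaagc
Scgb1b30: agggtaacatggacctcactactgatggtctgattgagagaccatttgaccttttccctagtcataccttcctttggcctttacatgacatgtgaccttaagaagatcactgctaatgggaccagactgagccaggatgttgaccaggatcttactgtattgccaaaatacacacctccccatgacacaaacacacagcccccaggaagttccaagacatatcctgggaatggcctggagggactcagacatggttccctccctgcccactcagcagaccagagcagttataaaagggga
They hold 8, 16, 19, 25, 13 and 0 CpG dinucleotides in that order, against a median of 7 over 32851 RefSeq promoter entries of this length. All of the 6 but Scgb1b30 hold more CpG than the median, and the Scgb1b30 promoter was kept with none. The hexamer TGCCGC, searched on both strands, is in the Mcts2 window, in none of the other five and in 11.6% of all entries.

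Both cell types were checked against marker genes. None of 30 cumulus and granulosa genes had a marked promoter in CC and 1 had one in ICM, Lhcgr (the luteinizing hormone receptor, 38.5% of its promoter). Of 27 autosomal pluripotency genes, 4 promoters were marked in CC and none in ICM, where 7.83% and 4.0% of all promoters were marked. The mark was thus absent from most marker genes of either cell type in both lists, and the lists do not tell the labelled cell types apart by their own markers.

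CC carried the mark over 212 Mb of autosomal sequence, 8.86% of the assembled length, and ICM over 154 Mb or 6.43%, an ICM to CC ratio of 0.726. The ratio over the 19 autosomes was 0.799 ± 0.178 (SD), below 1 on 17 of them, lowest on chromosome 7 at 0.398 and highest on chromosome 10 at 1.07. The authors' fold enrichment was higher in ICM, with a median of 3.01 against 2.71 in CC. Where only peaks of at least 3-fold were kept, the direction turned, to 112 Mb in ICM against 90.9 Mb in CC and a ratio of 1.23. The lower ICM coverage therefore held for the deposited lists, and for peaks of −log10 q of at least 2 (ratio 0.759), but not for peaks of at least 3-fold.

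The lists differed in the shape of their domains. Median peak widths were close, 738 bp in CC and 649 bp in ICM, but CC held 1893 peaks of at least 10 kb with 39.7 Mb, 18.7% of its covered length, and ICM held 447 with 5.61 Mb, 3.64% of its length. The widest CC peak measured 274595 bp and the widest ICM peak 29454 bp. CC had 513 peaks of at least 20 kb with 20.95 Mb in all, and ICM had 11. These CC domains lay mostly on a few chromosomes, 25.4% of their length on chromosome 7, 22.6% on chromosome 5, 15.3% on chromosome 12 and 14.9% on chromosome 4. ICM kept pieces of them. All but 5 of the 513 were touched by an ICM peak, with a median of 6 ICM peaks each and a median ICM peak width of 800.5 bp, and ICM peaks covered 30.2% of the length in CC peaks of 20 to 50 kb and 29.3% in wider ones. The share covered was highest at middle widths, 47.8% for CC peaks of 5 to 10 kb, and 26.7% below 500 bp. Seen from the other end, ICM peaks of 10 to 20 kb were covered by CC peaks over 83.1% of their length and ICM peaks below 500 bp over 31.3%.

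On the megabase scale, ICM coverage was less uneven than CC coverage, and its median rose with CC coverage. Of 2403 blocks of 1 Mb, 54 were covered to at least 60% in CC, with a median of 76.8%. The same 54 blocks had a median of 17.2% in ICM and none was above 37.2%. In 1423 blocks with less than 5% in CC the medians were 3.03% in CC and 4.48% in ICM, and ICM was the higher of the pair in 1255. Over all blocks ICM was higher in 1597 although its total was smaller. The block most covered in CC, from 94000001 to 95000000 on chromosome 5, fell from 97.1% to 25.9%. A block of zinc finger genes such as Zfp600 and Zfp981 (chromosome 4, 146000001 to 147000000) went from 92.2% to 37.2%, the highest ICM value of any block. One near Vstm2b (chromosome 7, 40000001 to 41000000) went from 89.7% to 5.42%. On chromosome 7, a block holding Obox7, Obox8 and sulfotransferase genes (14000001 to 15000000) went from 88.3% to 15.6%, and a block of Cyp2a, Cyp2b and Nlrp genes (26000001 to 27000000) from 87.0% to 20.0%. TE values in these 5 blocks ran from 6.40% to 34.9%.

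**Figure D1:**
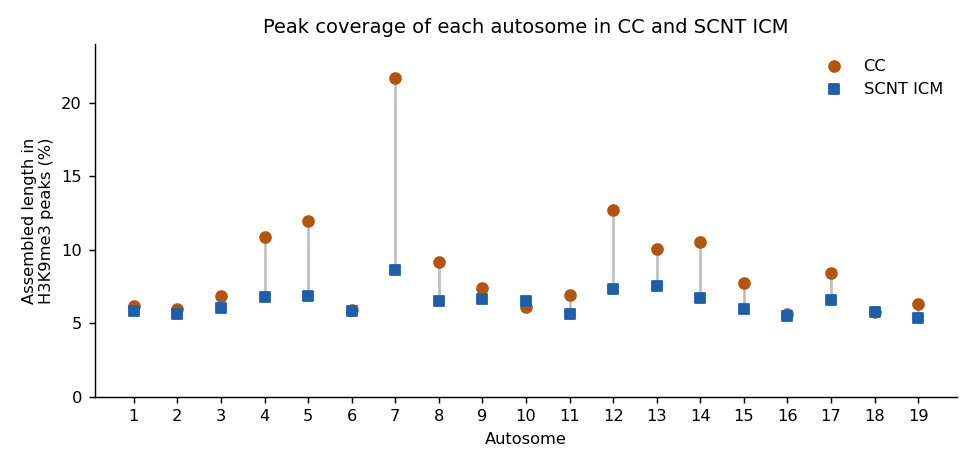
Share of the assembled length of each autosome inside H3K9me3 peaks, in percent, for CC (circles) and SCNT ICM (squares), with no error since there was 1 list per group. CC ranged from 5.63% on chromosome 16 to 21.7% on chromosome 7, while ICM stayed between 5.34% on chromosome 19 and 8.63% on chromosome 7.

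Window by window, 197662 windows (8.25%) were marked in CC and 139555 (5.82%) in ICM, where 50% or more of a window had to lie in peaks. Of the CC windows 71160 were also marked in ICM (kept), 36.0% with a 95% interval of 35.8% to 36.2%, and 126502 were not (lost). The other 68395 ICM windows (gained) made up 49.0% of the ICM list (48.7% to 49.3%). Most of the change was complete, since 74.4% of lost windows had no base in an ICM peak and 61.6% of gained windows none in a CC peak. Over the autosomes the kept share was 38.5% ± 6.62 (SD, n = 19), from 24.2% on chromosome 7 to 55.1% on chromosome 10.

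Kept windows were rich in GC and repeats. Their median GC content was 44.8%, against 41.6% in lost, 43.7% in gained and 41.7% in all windows, and 72.2% of their bases were soft-masked as repeats, against 51.5%, 55.4% and 33.5%. The kept share of CC windows climbed from 8.46% below 35% GC through 31.7% at 40 to 45% GC to 77.1% at 55% GC and over. It climbed with repeat content too, from 19.04% of CC windows less than 20% masked to 51.6% of those masked over 80% or more. Both held within the strata of the other. At 50% GC and over, the kept share rose from 28.4% (27.1% to 29.8%) in windows under 20% masked to 92.6% (92.0% to 93.2%) in those at least 80% masked, while below 40% GC it rose from 9.19% to 32.7%. The order of the GC and repeat classes stayed the same under stricter peak thresholds and with CC trimmed to equal covered length. The share of all windows marked in ICM, whatever their state in CC, also differed between classes. It was 0.501% below 35% GC and 7.78% at 55% GC and over. By repeat content it was 2.23% under 20% masked and 25.3% at 80% or more. At 50% GC and over these shares were 2.21% and 82.5%. The kept shares thus follow where ICM was marked in general and do not measure retention alone.

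**Figure D2:**
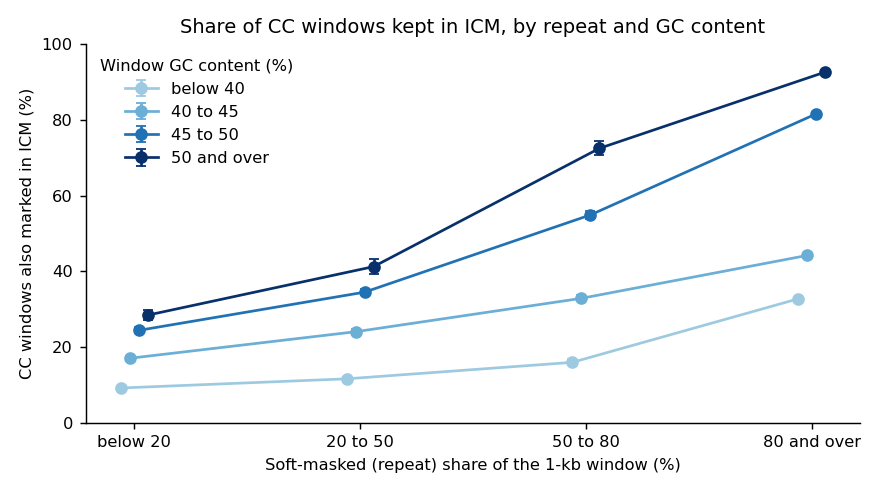
Share of CC windows that were also marked in ICM, in percent, by soft-masked share of the window (horizontal axis) and GC content (lines), with 95% Wilson intervals as bars where larger than the points. All 4 lines rise, from 9.19% at the lower left to 92.6% at the upper right. In the strata of those end points ICM marked 0.723% and 82.5% of all windows.

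CpG content followed the same order. CpG dinucleotides numbered 14.96 per kb in kept windows, 7.19 in lost, 9.69 in gained and 8.51 in all windows. The hexamer TGCCGC, the letters bound by the imprint-guarding zinc finger protein ZFP57, was searched on both strands and occurred in 15.9% of kept windows, 3.94% of lost, 8.36% of gained and 5.89% of all. Among windows of 45 to 50% GC alone, the shares were 26.1% in kept, 7.14% in lost, 12.2% in gained and 9.54% in all, and below 40% GC they were 1.94%, 1.49%, 2.58% and 2.02%. A match says only that the letters are present.

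Genes held a smaller share of marked windows than of all windows. Windows inside genes made up 47.3% of all windows, 27.2% of kept, 29.2% of lost and 33.8% of gained windows. The kept share was 24.1% (23.3% to 24.98%) within 5 kb of a protein-coding start and 39.1% at 5 to 50 kb. ICM marked 2.90% and 6.03% of all windows at these distances. The first 5 Mb of assembled sequence of the chromosomes had 15.2% of windows marked in CC and 8.54% in ICM, against 7.91% and 5.66% in the interior. CC fold ordered the outcome, as 20.9% of the windows in the lowest quartile of CC fold and 56.9% in the highest were kept.

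The stages between the start and the end of reprogramming were read for the same windows. Of kept windows, 53.2% were marked at 6 hpa and 80.02% at 14 hpa. The share was 57.1% in 2C, 58.6% in 4C and 54.7% in 8C embryos, and 75.7% in morulae. A share of 30.0% was marked at all 6 stages and 6.802% at none. Of lost windows, 26.9% were marked at 6 hpa and 42.3% at 14 hpa, then 16.7% in 2C embryos and 13.7% to 17.4% in the 3 lists up to morulae. Of them 43.2% carried no mark at any of the 6 stages after CC. Of gained windows, 15.2% were marked at 6 hpa and 33.8% at 14 hpa, then 22.9% in 2C embryos and 54.6% in morulae, and 27.0% appeared only in ICM among the SCNT lists up to that point. PN5 marked 36.9% of kept, 8.06% of lost and 15.8% of gained windows, against 4.82% of all. Of all windows, 4.95% were marked at 6 hpa, 8.12% at 14 hpa and 4.63% in 2C embryos. The share of all windows was 5.95% in 4C and 6.11% in 8C embryos and 6.998% in morulae. The rise at 14 hpa and the fall in 2C embryos, seen in every class, thus went with the same change over all windows. They do not show by themselves that the mark returned to or left these classes.

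ICM and TE had nearly the same relation to CC. TE peaks covered 34.9% of the CC length and ICM peaks 37.1%, and 48.8% of TE windows and 49.0% of ICM windows lacked a CC mark. TE marked 77.0% of kept, 54.2% of gained and 8.95% of lost windows, against 5.39% of all. These pairs share the CC list.

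**Figure D3:**
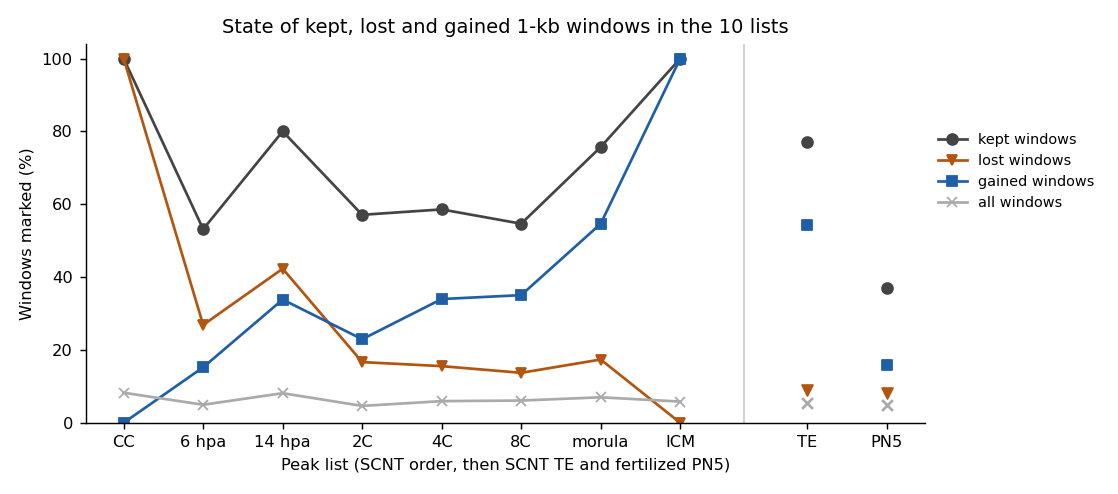
Share of kept, lost, gained and all 1-kb windows that were marked in each list, in percent. CC and ICM points are fixed by the definition of the classes, and the others show kept windows at 53.2% to 80.02% through the SCNT stages, lost windows at 8.95% in TE and gained windows at 54.2% in TE. All windows ran from 4.63% to 8.12% between 6 hpa and the morula.

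Among genes, loss was more frequent than gain. Coverage of the gene length was at least 50 percentage points lower in ICM for 603 of 20807 genes (2.9% of all) and at least 50 points higher for 51 (0.245%). At least 50% of the length was covered in 856 genes in CC (4.11%) and in 198 in ICM (0.952%), with 118 in both. The median gene had no peak in either list. The 603 genes had a median coverage of 84.6% in CC, 0.877% in ICM and 1.03% in TE, and in 575 of them TE was also at least 50 points below CC. Chromosome 7 held 248 of them and chromosome 5 held 61, together 51.2% of the losing genes against 15.8% of all genes. The 51 gaining genes were short, with a median length of 1.58 kb against 6.10 kb in losing and 17.6 kb in all genes, and a short gene is carried past the threshold by a single peak. They had medians of 73.5% in ICM and 57.9% in TE, and 41 of the 51 had no CC peak.

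The genes named for loss were those with most bases lost among the 603, a choice that favours long genes. Asic2 (ENSMUSG00000020704.13), an acid-sensing ion channel gene of 1088 kb on chromosome 11 (80880169 to 81968457), was covered over 718 kb in CC and 121 kb in ICM, 66.0% and 11.1%. Tmem132d (ENSMUSG00000034310.8, chromosome 5, 127781630 to 128433077), a gene for a neural transmembrane protein, had 96.7% of its length covered in CC. It had 70.0% at 6 hpa and 79.9% at 14 hpa, then 42.9%, 35.7% and 31.8% in 2C, 4C and 8C embryos and 34.5% in morulae, and ended at 14.7% in ICM and 18.4% in TE, with 5.84% in PN5. It was higher at 14 hpa than at 6 hpa, and no list after CC was as high as CC. Its relative and neighbour Tmem132c went from 81.3% to 13.4%. Caln1, a calcium-binding protein of brain, went from 68.3% to 15.2%, and Rimbp2, a scaffold of the presynaptic active zone, from 78.9% to 13.5%. Mtus2, a microtubule-associated protein, went from 69.7% to 14.5%. Myo18b, a myosin of muscle, went from 76.5% to 11.9%, and Ccdc60, a coiled-coil gene, from 92.3% to 12.4%. These 6 genes and Tmem132d all lie on chromosome 5. Cpne4, a copine, and Nek11, a kinase of the NIMA family, lie near each other on chromosome 9 and went from 60.4% to 5.89% and from 57.2% to 6.63%. In all 10 of these genes, TE was between 6.74% and 18.4%.

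Genes that gained bases included several zinc finger genes. Rdh9, a retinol dehydrogenase gene (chromosome 10, 127776386 to 127792697), gained the most bases among the genes named for a rise of at least 50 points, from 15.9% to 71.2%. Zfp646 went from 0% to 55.3%, Zfp629 from 0% to 50.9%, Zfp747 from 0% to 74.7% and Zbtb39 from 0% to 56.5%. Zfp747 (ENSMUSG00000054381.5, chromosome 7, 127372537 to 127376050) had a peak at 6 hpa over 24.5% of its length, none from 14 hpa to the morula and 69.0% in TE. Zinc finger symbols of the types Zfp, Zbtb, Zscan and Zkscan made up 2.19% of genes, 9.80% of gaining genes (5 of 51) and 2.65% of losing genes (16 of 603). Zfp747, Zfp629 and Zfp646 lie near each other on chromosome 7 (127372537 to 127885996). Zbtb39 lies near Rdh9 on chromosome 10, so most of the 5 come from few loci. Of the promoters of these 455 zinc finger genes, 6 were gained and 23 lost, against 2.19% and 6.02% of all promoters. Tex101, which encodes a surface protein of male germ cells, went from 2.68% to 57.7%. Mettl27, a methyltransferase-like gene, went from 0% to 59.2%, Ranbp6, an importin-like gene, from 0% to 58.2%, and Serpina5, a serine protease inhibitor, from 0% to 50.2%. Zrsr1, an imprinted retrogene of a splicing factor, went from 14.6% to 81.3%.

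Few genes were filled in both lists. Of 448 genes covered to at least 80% in CC, 36 were so in ICM too (8.04%). In ICM 68 of all 20807 genes reached 80%, so the 36 were most of the genes filled in ICM. Of the 36, 5 met the length and name limits for genes to be named. Zfp110 was covered to 93.5% in CC and 87.1% in ICM, Zfp873 to 86.2% and 85.5%, Il3ra, the interleukin 3 receptor alpha chain, to 91.9% and 88.4%, Scgb1b30, a secretoglobin, to 96.2% and 88.9%, and Duxf3, a copy of the Dux array, to 100% in both. Coverage between the ends was not always as high. Zfp110 was at 20.6% in 2C embryos, 30.7% in 8C embryos and 60.7% in the morula. Il3ra was at 73.3%, 27.8% and 69.7% in these lists. Duxf3 and Scgb1b30 have close copies in the genome, so their reads may be shared among copies.

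**Figure D4:**
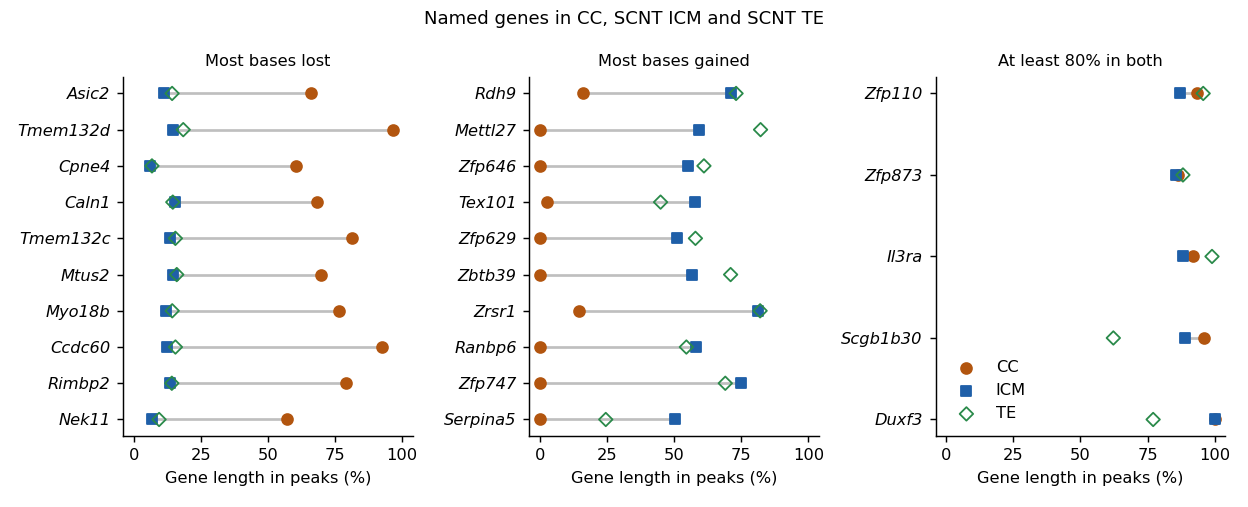
Share of the annotated gene length inside peaks, in percent, in CC (circles), SCNT ICM (squares) and SCNT TE (diamonds) for the genes named by rule, with 1 list per group and no error bars. The genes were chosen for these CC and ICM values, so their separation is a description. The 10 losing genes sit at 57.2% to 96.7% in CC and 5.89% to 15.2% in ICM.

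Loss by family was greatest in tandem gene clusters, many of them on chromosome 7. The 8 Zscan4 genes, expressed in 2-cell embryos and all on chromosome 7, had 89.8% of their summed length covered in CC. The share was 28.5% at 6 hpa and 37.9% at 14 hpa, then 0.193% in 2C embryos and 0.650% in ICM, and all 8 fell by at least 50 points. Zscan4d (chromosome 7, 11161374 to 11166159) had 70.5% in CC, then 28.6% (6 hpa) and 14.8% (14 hpa), and no peak in any later list. The 7 Obox genes, oocyte-specific homeobox genes, went from 95.5% to 36.6%, and 6 of 7 fell past the threshold. Obox6 had 100% in CC and 98.5% at 14 hpa, with 0% in 2C embryos and in ICM. The 5 Usp17l genes, ubiquitin-specific proteases, went from 76.0% to 3.76%. All 8 placental cathepsins of chromosome 13 were lower in ICM, 73.8% falling to 1.27%, and 7 of 8 passed the threshold. Copies in these clusters are alike in sequence, so reads can be shared between members.

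Other clusters that code for surface, secreted and immune proteins also lost cover. Secretoglobins went from 72.1% to 14.8% (23 of 34 past the threshold), pregnancy-specific glycoprotein and Ceacam genes from 58.8% to 12.4% (16 of 28), and Nlrp genes from 56.6% to 13.6% (7 of 17). Vomeronasal receptor genes of type 1 went from 40.1% to 5.96% (48.6% of 208 members past it) and of type 2 from 41.0% to 7.91% (41 of 119). Immunoglobulin variable segments went from 37.0% to 5.07% (83 of 218), clustered protocadherins, adhesion proteins of neurons, from 40.3% to 13.9% (12 of 55), and detoxifying genes of the Cyp2, Cyp3 and Cyp4 families from 37.9% to 10.4% (19 of 77). Each of these shares of members was above the 2.9% of all genes that passed. Olfactory receptors, the largest family, were near it, with 36 of 1128 losing genes (3.19%) and 9.43% of length going to 3.44%. Major urinary protein genes kept more, 43.4% in CC and 29.4% in ICM.

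Some families went the other way or stayed out of both lists. Serpina and Serpinb protease inhibitor genes were at 5.10% in CC and 9.37% in ICM, with 22 of 49 higher and 4 lower in ICM, where 5198 of all 20807 genes were higher and 5771 lower. Spink protease inhibitors were at 1.55% and 6.67%, guanylate-binding Gbp genes at 3.35% and 7.86%, and keratins with keratin-associated proteins at 1.53% and 5.07%. Serpina5 alone of its family passed the 50-point threshold upward, and of 110 keratin genes 3 passed it upward and 6 downward. The 35 bitter taste receptor and 15 trace amine receptor genes had no base in a peak of CC or ICM. Zfp zinc finger genes as a family were at 14.7% in CC and 10.5% in ICM, with 8 of 385 losing and 4 gaining at least 50 points.

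**Figure D5:**
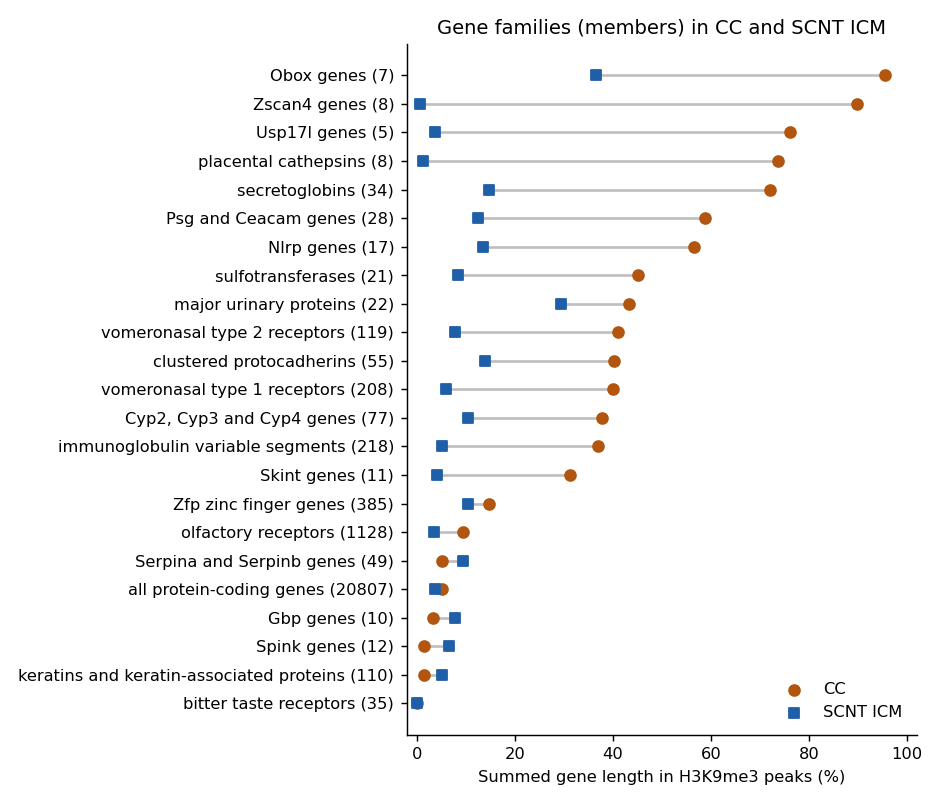
Share of the summed gene length of each family inside peaks, in percent, in CC (circles) and SCNT ICM (squares), with the number of autosomal members in brackets and no error, since there was 1 list per group. All protein-coding genes sit at 5.09% and 3.802%, Zscan4 genes at 89.8% and 0.650%, and Serpina and Serpinb genes at 5.10% and 9.37%.

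Promoters, taken as 1 kb on either side of the annotated 5′ end, were marked in 1630 genes in CC (7.83%) and in 832 in ICM (4.0%). A promoter was marked if 50% or more of it lay in one peak, or 50% or more of a peak lay inside it, so a short peak could mark it with a low percent covered. Of the CC promoters 377 were kept (1.81% of all genes and 23.1% of CC promoters, 21.1% to 25.2%) and 1253 lost (6.02%). ICM promoters without a CC mark numbered 455 (2.19% of all and 54.7% of ICM promoters, 51.3% to 58.0%). High-CpG promoters, typical of housekeeping and developmental genes, were kept in 16.0% of cases (12.8% to 19.7%), intermediate ones in 33.6% (27.7% to 40.1%) and low-CpG ones in 23.9% (21.3% to 26.6%). High-CpG promoters made up 49.9% of all promoters but 26.1% of those marked in CC and 19.5% of those marked in ICM. The kept share was thus lowest at high-CpG promoters, while among windows it was highest at high GC. In ICM 1.56% of all high-CpG promoters were marked, 4.88% of intermediate and 7.33% of low-CpG ones. Each kept share was above the ICM share of its class. These base shares differ, so the kept shares do not rank the classes by retention. Between the ends, 74.5% of kept, 52.4% of lost and 35.6% of gained promoters were marked at 6 hpa, when 29.9% of all promoters were, and 66.6%, 18.3% and 45.7% in the morula, when 5.11% were.

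With names limited as for genes, 126 promoters went from 100% to 0%. The first 10 by symbol were A26c2, Aurkc, C87414, CK137956, Caln1, Ccdc60, Ccl1, Ccl12, Ccl8 and Ceacam11. Aurkc is a kinase of meiotic cells, Ccl1, Ccl8 and Ccl12 are chemokine genes on chromosome 11, and Ceacam11 belongs to the pregnancy-specific glycoprotein cluster. The Aurkc promoter had 100% in CC, then 95.2% (6 hpa), 63.6% (14 hpa) and 31.7% (2C), and no cover afterwards. Gained promoters at 100% in ICM and 0% in CC were those of AY358078, Ifna13 (an alpha interferon), Krt35 (a hair keratin), Shank2 (a synaptic scaffold) and Taf7 (a subunit of the general factor TFIID). Kept promoters at 100% in both were those of AW822073, Cntn3 (a neural adhesion molecule), Duxf3 and Scgb1b30.

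Promoters of developmental regulators were marked in CC far more often than in ICM. Of 117 Hox, Fox, Gata, Nkx and Sox genes, which specify body regions and lineages, 19 promoters were marked in CC (16.2%, against 7.83% of all) and 2 in ICM (1.71%, against 4.0%), with 1 in both, that of Sox30. Between these ends 95 were marked at 6 hpa and 25 at 14 hpa, then 33 (2C), 34 (4C), 20 (8C) and 4 (morulae), and TE had 2. Of all promoters, 29.9% were marked at 6 hpa and 8.58% at 14 hpa, then 6.39% (2C), 6.099% (4C) and 6.796% (8C). Morulae had 5.11% of all promoters marked and TE had 4.13%. The share among the 117 genes was thus above that of all promoters up to 8C and below it in morulae and TE. Hoxa5 had 29.5% of its promoter covered in CC, then 100% (6 hpa), 55.1% (14 hpa) and 17.9% (8C), and nothing in morulae, ICM or TE. Hoxa6 took another course, with 58.15% in CC, 63.85% at 6 hpa and none at 14 hpa or in 2C embryos. Its promoter then had 100% (4C), 5.75% (8C) and 32.75% (morulae), and nothing in ICM or TE. Foxa2, an endoderm regulator, had 45.1% in CC, 52.0% at 6 hpa and no base in later lists. Gata3, a trophectoderm regulator, had 36.0% in CC, 100% at 6 hpa and none in ICM or TE.

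Marker lists of single lineages had from 0 to 4 marked promoters each in CC and 0 or 1 in ICM, against 7.83% and 4.0% of all promoters. The 4 pluripotency promoters marked in CC were Tcl1 (100% covered, 0% in ICM), Nodal (18.9%), Utf1 (12.6%) and Zfp42 (9.45%), and none had a base in ICM. Tcl1, an AKT cofactor of embryonic stem cells, was covered over 80.1% of its gene in CC, 100% at 14 hpa, 20.2% in the morula and 0% in ICM. Of 8 primitive endoderm genes Foxa2 was marked in CC and none in ICM, and of 15 genes of other lineages Neurog2 and Tal1 were marked in CC and none in ICM. Among 13 trophectoderm genes, Gata3 and Hand1 were marked in CC and none in ICM. Of 11 oocyte genes, Nlrp5, needed by the early embryo, went from 96.2% to 4.32% of its length and from 100% to 0% of its promoter. Oosp1, of the same list, went from 0% to 21.2% of its length, and its promoter had no cover in CC or ICM. Of 22 genes of the H3K9me3 machinery, Atf7ip, the partner of SETDB1, had an ICM mark over 76.0% of its promoter, none in CC, 29.2% in the morula and 83.2% in TE. Adgre1, a macrophage surface protein, had 28.7% of its promoter covered in ICM and 0% in CC. Its gene length went the other way, with 38.3% covered in CC and 18.7% in ICM. Blood and endothelial genes otherwise had no marked promoter.

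Of 14 germline promoters 6 were marked in CC and 8 in ICM, with 3 in both, those of Ddx4, Dazl and Tdrd1, against 7.83%, 4.0% and 1.81% of all promoters. Ddx4, an RNA helicase of germ cells, had 39.6% of its promoter covered in CC, 81.4% in 2C embryos, none in 8C embryos or morulae, and then 61.4% in ICM. Dazl, an RNA-binding protein of germ cells, had 72.8% in CC, 79.7% in 2C embryos, none from 4C to the morula and 16.9% in ICM, where a short peak still met the rule. The mark at these promoters was therefore not carried through every list between CC and ICM. Sycp1, a part of the synaptonemal complex, had 44.0% in CC and none in ICM, while Sycp3, another part of it, had none in CC and 21.2% in ICM. Slc25a31, a testis carrier of adenine nucleotides, and Mael, a piRNA factor, had none in CC and 45.8% and 28.1% in ICM.

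Of 30 imprinted genes 13 had a marked promoter in CC and 10 in ICM, with 6 in both, against 7.83%, 4.0% and 1.81% of all promoters. The list holds non-coding genes that are not among the 20807. The shared promoter of Sgce and Peg10 was covered over 68.6% around Sgce in CC and 67.4% in ICM, and was above 60% at every SCNT stage. The Peg3 promoter, shared with Usp29, had 90.2% in CC and 89.95% in ICM, and between 63.5% and 100% at the stages between. Zrsr1 had 31.6% in CC, 94.3% in 2C embryos and 100% in ICM. Nespas, an antisense RNA of the Gnas locus, had 52.5% in CC and 100% in ICM. Cover was near 0 in CC and near complete in ICM at promoters of 2 non-coding RNAs that silence imprinted clusters, Kcnq1ot1 (0% and 100%) and Airn (1.5% and 93.0%). Mcts2, a retrogene, had 0% in CC, 96.7% in 8C embryos and 79.2% in ICM. Others went the opposite way. Cdkn1c, a growth inhibitor expressed from the maternal allele, was covered over 93.6% of its gene in CC, 100% in 2C embryos and 0% in ICM. Meg3 and Slc38a4 had 71.6% and 51.9% of their promoters in CC and none in ICM, and both had lost the mark by 8C. Peaks do not tell the parental alleles apart.

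Runs of adjacent windows of one class showed the same contrast of scale. Runs of at least 10 windows numbered 1083 among lost windows, 291 among kept and 7 among gained, holding 12.8%, 4.94% and 0.135% of the windows of each class. The longest lost run covered 66 windows on chromosome 11 (3127001 to 3193000) over Drg1 and Sfi1, a locus with copies elsewhere in the genome. Another of 53 windows (chromosome 7, 40703001 to 40756000) held no gene and was covered to 100% in CC, 53.4% at 6 hpa, 33.9% in 2C embryos and 2.15% in ICM. A run of 48 windows lay inside Tmem132d. The longest gained run, of 20 windows, lay in Ahnak (chromosome 19, 8999001 to 9019000), which encodes a giant scaffold protein, with 0% in CC and 15.9% in morulae, against 99.2% in ICM and 96.6% in TE. A gained run of 13 windows lay in Srrm2, a splicing factor gene on chromosome 17, with 0% in CC and 94.8% in ICM. Both lay over exons.

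Centres of single peaks of highest fold are shown for the leading CC and ICM sites, 120 bases each on the plus strand of mm10 with CpG in capitals. Of 75977 CC peaks with no base in an ICM peak, the highest fold, 8.02, was over the coding sequence of Ahnak2, with 66.8% GC. The next, 7.33, was over the coding sequence of Zfp513 (chr5:31200235-31200672), marked at every stage to 8C and in none of the morula, ICM and TE lists. The other 3 of the 5 highest lay in introns or between genes and were soft-masked over 67.6%, 100% and 97.03% of their length. Of 62780 ICM peaks with no base in a CC peak, the highest fold, 44.96, was over a CTT repeat 158491 bp from the nearest protein-coding gene (chr8:31420230-31420636). All of the 5 highest but the second, on chromosome 1, were such CTT or AAG repeats. The chromosome 8 site was also covered over 65.4% in TE, 63.1% at 6 hpa and 37.8% in 8C embryos. In the labels below, alone refers to CC against ICM only. Of 71775 ICM peaks that touched a CC peak, the highest, 79.3, was over a GTT repeat (chr14:107858496-107858665), where the CC peak had a fold of 3.25.
Zfp513, CC alone, chr5:31200394-31200513: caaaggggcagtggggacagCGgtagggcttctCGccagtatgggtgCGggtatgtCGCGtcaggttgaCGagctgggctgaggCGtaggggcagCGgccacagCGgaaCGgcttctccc
CTT repeat, ICM alone, chr8:31420373-31420492: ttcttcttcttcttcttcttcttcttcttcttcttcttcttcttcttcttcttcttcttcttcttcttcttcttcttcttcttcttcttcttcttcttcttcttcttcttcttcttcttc
GTT repeat, both, chr14:107858521-107858640: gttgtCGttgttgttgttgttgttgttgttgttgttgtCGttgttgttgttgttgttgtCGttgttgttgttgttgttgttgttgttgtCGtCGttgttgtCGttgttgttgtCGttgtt
Reads of such repeats can map to many places, and folds of this size over short intervals came without any replicate value.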

How the data were processed

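H3K9me3 was profiled by ultra-low-input native ChIP-seq. According to the study's methods and the submitters' processing notes, the authors trimmed reads with cutadapt 1.16, aligned them to mm10 with BWA, merged replicates with SAMtools, removed duplicates and drew the same number of reads per group with Picard, and called broad peaks over input with MACS2. deepTools is also named there. The versions of the other tools and the MACS2 threshold are not given in the sources used here. The deposited lists hold, for each peak, its position, a fold enrichment over input (a ratio) and a −log10 q-value, with no count of reads, so depth per window is unknown. The lowest −log10 q was 1.52 in CC and 1.48 in ICM.

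From these lists, peaks of the 19 autosomes were merged and set against GRCm38.p6, which is mm10, with GENCODE release 21 for mouse. No peak ran beyond a chromosome end. Windows of 1 kb with at least 50% assembled bases were marked at 50% cover. A promoter was marked when 50% of it lay in a peak or 50% of a peak lay in it. Its CpG class was high where any 500-bp window, moved by 10 bp, reached 0.75 in CpG ratio and 55% in GC, and low where none passed 0.48. Genes were called at a change of 50 percentage points. Repeats are the soft-masked bases of the reference. Groups followed the labels of the samples. Wilson intervals are at 95% and, like the limit of 3 counts for a count of 0, cover counting error only. Promoter sequences are from RefSeq, where 25 of 28 symbols looked up were matched.

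The members and gene lists were chosen with earlier results of these data known. Genes were named by rule: at least 2 kb long and no predicted-model name, the 10 with most bases lost and the 10 with most gained past the threshold, those covered to 80% in both lists, markers with at least 20% of the gene or promoter covered, up to 2 members per family with the largest change, the 10 promoters with the highest cover per outcome, the 5 longest runs and the 5 highest peaks per class. Markers counted in full are also named below 20%, which was decided after their values were seen. Alternatives were stricter q and fold limits, CC trimmed to equal length, other window and promoter limits, other gene thresholds, and adding X or leaving out chromosome 7. Functions were tested on simulated intervals. Python 3.11.15, numpy 2.4.6, pandas 2.3.3, scipy 1.17.1 and matplotlib 3.10.9 were used.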

Additional observations from a re-analysis of the deposited data

Results flagged for a closer look

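Peaks outside the autosomes took no part in the comparisons above and held signal. On the X chromosome 31.1% of the CC windows (12461 of 40053, 30.7% to 31.6%) were also marked in ICM, against 36.0% on the autosomes, with no replicate value for either. Peaks covered 25.9% of X in CC and 10.8% in ICM, against 8.86% and 6.43% of the autosomes, so these kept shares do not compare retention alone. The ICM list held 676 peaks on the Y chromosome and the CC list 360, although cumulus cells come from females and the embryos carry their genomes. On the mitochondrial chromosome, which carries no histones, ICM had 5 peaks and CC had 2, where a count of 0 allows up to 3. The cause of these values was not tested.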

How the results depend on the processing

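Pooled lists limit every value: with 1 list per group no replicate could be left out, and read depth, fold and repeat mapping cannot be told apart from a change in the mark. No paired analysis was possible because replicates had been pooled before peaks were called. Leaving out chromosome 7 and the alternatives for megabase blocks were chosen after seeing the data. The ICM to CC length ratio of 0.726 became 0.759 at −log10 q of at least 2, 0.675 with X and 0.781 without chromosome 7, and turned to 1.23 at fold of at least 3. The kept share of CC windows, 36.0%, became 37.1% (q), 43.7% (fold), 41.1% (equal length), 46.0% (1 base marks a window), 29.7% (90% cover), 35.2% (with X) and 38.1% (without chromosome 7). The share of ICM windows without a CC mark, 49.0%, became 50.2%, 64.2%, 56.6%, 43.5%, 51.1%, 46.4% and 50.2% in that order. CC promoters kept, 23.1%, became 19.8% (fold), 26.7% (equal length), 27.8% (1 base) and 31.2% (2 kb either side), and ICM promoters without a CC mark, 54.7%, became 73.9%, 69.4% and 50.1% (fold, equal length, 2 kb). Losing genes, 603, numbered 198 at fold of at least 3, 1044 at 25 points, 292 at 75 points and 355 without chromosome 7. Gaining genes, 51, numbered 89 at equal length, 205 at 25 points and 21 at 75 points. Losing genes outnumbered gaining genes under each of these settings. The number of megabase blocks with more ICM than CC cover, 1597, was 1709, 2135 and 1995 under the q, fold and equal-length settings.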
